A study of Mus musculus with 8 samples.

Results

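The clade B serpins described here are 5 mouse genes, Serpinb1a, Serpinb6a, Serpinb6b, Serpinb8 and Serpinb9. They are measured by 8 of the 45037 probe sets of the arrays, which name 18193 genes in all. A probe set belongs to a member when the platform annotation gives it that single gene symbol. The members were chosen by their symbols with the light zone against dark zone values of these same arrays in view, so those values are given as a description, without a test.

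Germinal centre B cells of C57BL/6 mice were taken from lymph nodes 12 days after subcutaneous NP-KLH in alum, a hapten on a carrier protein with adjuvant. The cells were sorted as B220+CD38-CD95+, divided into light zone and dark zone cells by CXCR4 and CD83, and profiled on Affymetrix arrays, 4 for each zone. Both groups share strain, immunization, day and the first gate. The age of the mice, and whether animals were pooled, are not given in the sources used here. The labels call the samples biological replicates without saying that each came from separate animals, so every p-value covers the spread between these samples only. The gate wording pairs the light zone with high CXCR4 and low CD83, whereas the arrays titled light zone had more Cd83 (log2 difference, dark minus light, -2.32) and less Cxcr4 (0.96) mRNA. Groups follow the titles throughout. In sorted cells measured in bulk, fewer cells expressing a gene and less RNA per cell cannot be told apart.

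Serpins are protease inhibitors that present an exposed loop as bait. The protease cleaves the loop and is trapped in a covalent complex, which spends both molecules. Clade B members lack a classical secretion signal and act mainly in the cytosol and nucleus, where they can protect lymphocytes and myeloid cells from proteases that leak from their own or neighbouring cells' granules. Mice carry duplicated clade B genes in several places where humans have a single copy. Germinal centre B cells compete for help from T cells in the light zone and divide in the dark zone.

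The 5 genes did not share a single pattern. Serpinb1a, Serpinb6b and Serpinb9 were higher in every light zone array than in any dark zone array. Serpinb6a was at similar levels in both zones, and Serpinb8 was near the floor of the arrays in both. Over all 18193 named genes, 14.6% had every light zone array above every dark zone array. The contrast was in view when the genes were chosen, so nothing is read from 3 of 5 against that share.

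Serpinb1a, the mouse counterpart of the inhibitor of neutrophil elastase, cathepsin G and proteinase 3, was the member with the largest zone difference. Its brighter probe set had RMA intensities of 663, 679.8, 582.8 and 547 in light zone replicates 1 to 4. The dark zone replicates had 92.61, 97.31, 87.24 and 70.81. The lowest light zone array was therefore far above the highest dark zone array, with a gap of 2.49 on the log2 scale. The means were 618.2 ± 63.6 (SD, n = 4) and 87.0 ± 11.6 (SD, n = 4), a log2 difference of -2.83 with a standard error (SE) of 0.13 from the arrays' own spread. That is 7.13 times more signal in the light zone. A dimmer probe set, whose probes may be shared with related genes, gave 124.1, 142.9, 107.1 and 94.57 in the light zone and 21.81, 22.09, 22.8 and 25.78 in the dark zone. It moved the same way, with a difference of -2.33 (SE 0.14), but its dark zone values lay below the median level of all probe sets, an intensity of 27.8. The 4 light zone arrays stood in the same order in both probe sets, and the dark zone arrays did not: replicate 4 was the lowest in one and the highest in the other.

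Serpinb6b, a mouse relative of the human gene SERPINB6 known as an inhibitor of granzyme A, followed closely. Its only probe set had intensities of 728.8, 908.5, 764.4 and 802.6 in the light zone. In the dark zone they were 109.5, 133.2, 160 and 122.2. No array of one zone reached the other, with a gap of 2.19 on the log2 scale. The means were 801.1 ± 77.7 (SD, n = 4) and 131.2 ± 21.5 (SD, n = 4), a log2 difference of -2.62 (SE 0.13), or 6.14 times more signal in the light zone. Even in the dark zone the signal stayed well above the median probe set.

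Serpinb9, the inhibitor of granzyme B that shields cytotoxic lymphocytes and dendritic cells, was dim. Its brighter probe set had intensities of 36.83, 69.39, 31.63 and 45.74 in the light zone and 14.81, 13.26, 15.83 and 12.77 in the dark zone. The zones did not overlap, but the light zone arrays spread widely, and replicate 2 was the highest. The log2 difference was -1.64 (SE 0.26), or 3.11 times more signal in the light zone. It was -1.005 when both probe sets were averaged and -1.002 with a pseudocount of 16. Every dark zone value was below the median probe set, and RMA compresses folds near the floor. The mean over all arrays, 4.64 on the log2 scale, fell just short of the filter level of 4.80, so Serpinb9 was not among the 10547 genes of the test described below. The other probe set was near the floor in both zones, at 13.94 to 15.32 in the light zone and 10.86 to 11.85 in the dark zone. Its arrays were also apart, with a difference of -0.37 (SE 0.05). Light zone replicate 2 was the highest light zone array in all 5 probe sets of Serpinb1a, Serpinb6b and Serpinb9.

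**Figure D1:**
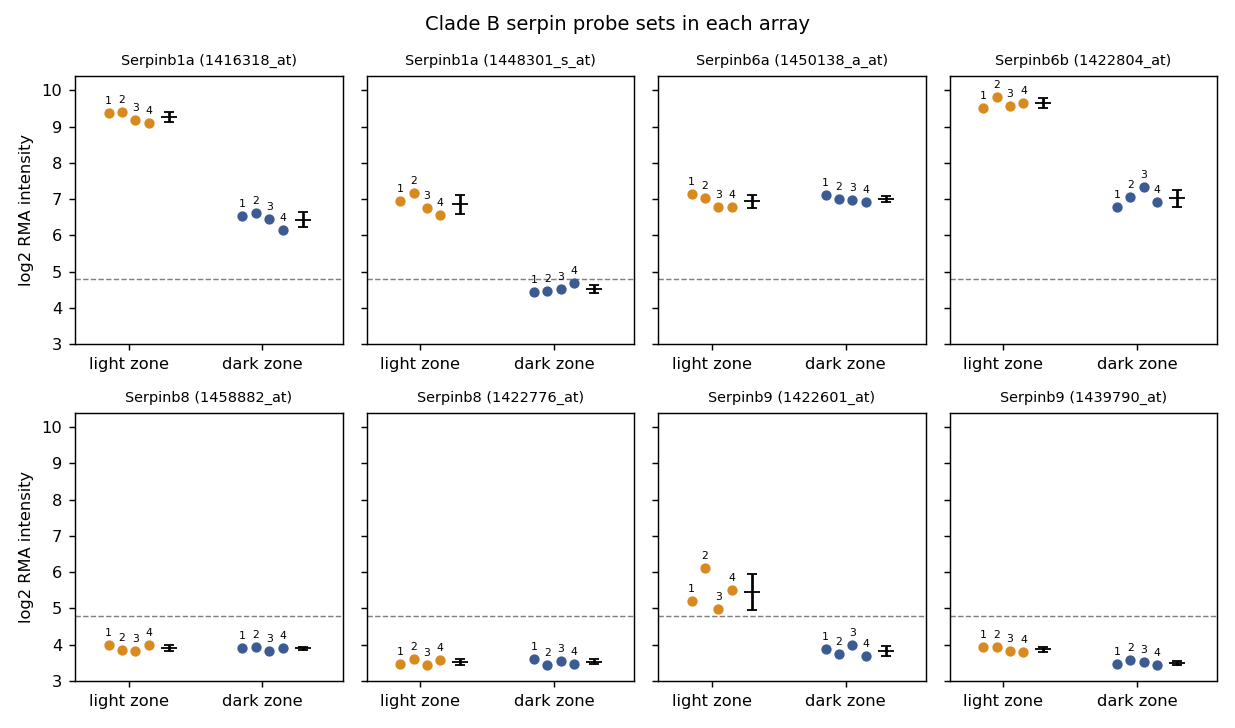
Log2 RMA intensity of the 8 probe sets of the 5 clade B serpins in each array, with the replicate number above each point. Black bars are the mean ± SD of 4 arrays, and the dashed line is the filter level of 4.80. The probe sets of Serpinb1a, Serpinb6b and Serpinb9 are higher in all light zone arrays, those of Serpinb6a and Serpinb8 overlap between zones.

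Serpinb6a, the closest mouse counterpart of SERPINB6, an intracellular inhibitor of cathepsin G, did not share the pattern of its relative Serpinb6b. Its intensities were 140.1, 131.9, 110.5 and 109.8 in the light zone and 137.3, 127.4, 125.6 and 120.4 in the dark zone. The ranges overlapped fully, since all dark zone arrays lay between the lowest and the highest light zone array. The log2 difference was 0.06 (SE 0.10), and leaving out any 1 array gave 0.01 to 0.13. Serpinb8, whose human counterpart inhibits furin, had intensities of 14.25 to 15.95 in the light zone and 14.13 to 15.33 in the dark zone for its brighter probe set. The dimmer one lay between 10.9 and 12.2 over all arrays. Differences were -0.02 (SE 0.05) and -0.01 (SE 0.05), and at this level a real difference in mRNA could go unseen.

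The start regions of Serpinb6b and Serpinb9, neighbours that were both higher in light zone cells, are set beside that of Serpinb6a, which was not. RefSeq sequences of build GRCm38.p6 matched 4 of the 5 members, with 5 start sites, 2 of them for Serpinb6a. Each run is the 250 bases before an annotated start, 5′ to 3′ on the gene's strand, and capitals mark matches to any of 6 short motifs. The windows are chr13:32965011-32965260 on the plus strand for Serpinb6b, chr13:33004291-33004540 on the plus strand for Serpinb9 and chr13:34002795-34003044 on the minus strand for the first start of Serpinb6a.
Serpinb6b: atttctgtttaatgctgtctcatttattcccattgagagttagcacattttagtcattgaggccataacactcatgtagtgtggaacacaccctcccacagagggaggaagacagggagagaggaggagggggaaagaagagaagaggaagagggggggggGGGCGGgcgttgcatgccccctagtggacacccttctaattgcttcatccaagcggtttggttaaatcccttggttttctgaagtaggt
Serpinb9: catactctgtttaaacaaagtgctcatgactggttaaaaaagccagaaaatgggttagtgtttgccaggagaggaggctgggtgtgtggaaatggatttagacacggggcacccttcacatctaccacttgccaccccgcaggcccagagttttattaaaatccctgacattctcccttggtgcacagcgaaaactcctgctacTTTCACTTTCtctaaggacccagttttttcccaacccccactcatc
Serpinb6a: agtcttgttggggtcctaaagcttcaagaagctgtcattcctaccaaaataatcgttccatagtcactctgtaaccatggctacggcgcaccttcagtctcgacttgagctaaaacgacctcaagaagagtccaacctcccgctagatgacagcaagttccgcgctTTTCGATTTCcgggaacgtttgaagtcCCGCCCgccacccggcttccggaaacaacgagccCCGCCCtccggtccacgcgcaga
The motifs were searched on both strands. The NF-kB type is a run of GGGA followed, after any 4 bases, by CC. The IRF type is a pair of GAAA runs with any 2 bases between them. The EGR type motif is spelled GCGNGGGCG in full. For the AP-1 type the letters searched were TGANTCA on either strand. A GC box was taken as the run GGGCGG wherever it stood. The TATA box was taken as TATAAA. Serpinb6b held 1 GC box, 89 to 84 bases before the start. Serpinb9 held 1 IRF type match, 46 to 37 bases before the start. The Serpinb6a window held 1 IRF type match and 2 GC boxes, and no match overlapped another. The second start of Serpinb6a held no match, and the Serpinb8 window held 1 NF-kB type and 1 AP-1 type match. Among 32851 windows of the same length, 17.6% held the NF-kB type motif, 2.98% the IRF type, 4.7% the EGR type, 6.75% the AP-1 type, 32.7% the GC box and 12.4% the TATA box. The Serpinb6b and Serpinb9 windows each held 3 CpG, against 20 in the Serpinb6a window shown and a median of 6 over all windows. The second start of Serpinb6a and the Serpinb8 window held 2 CpG each, so few CpG were not particular to the genes higher in the light zone. A match describes letters in the window and does not show binding.

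**Figure D2:**
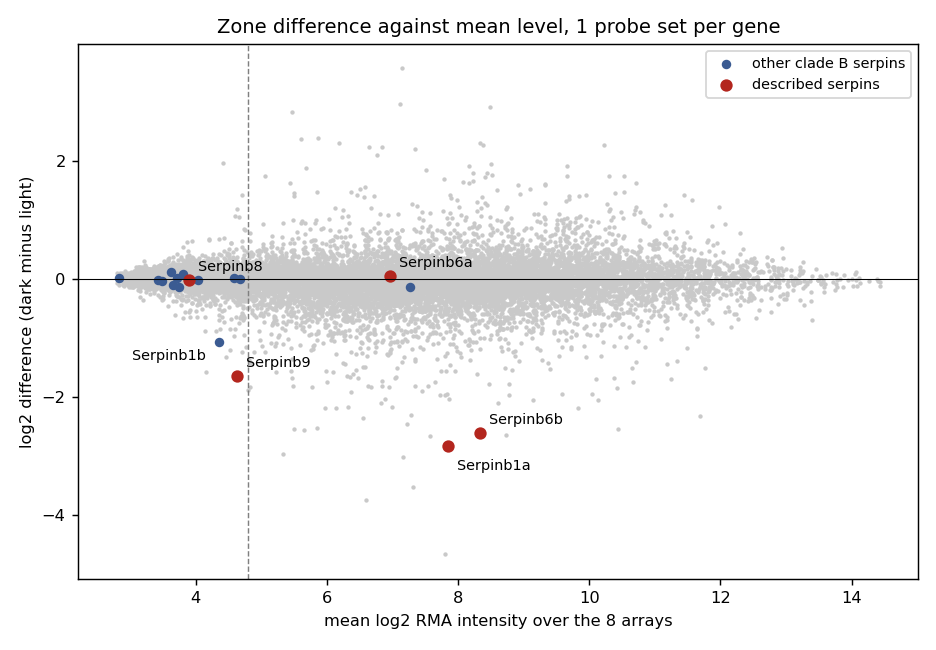
Log2 difference (dark minus light) against mean log2 RMA intensity over 8 arrays, for 1 probe set of each of 18193 genes in grey. The dashed line is the filter level. Serpinb1a (-2.83) and Serpinb6b (-2.62) are bright and far below 0, Serpinb9 (-1.64) and Serpinb1b (-1.06) are dim and below 0, and the other clade B genes lie near 0.

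The levels of the other genes in the family and around it were tested. Each gene was represented by its brightest probe set, and genes whose mean reached the median of all probe sets were tested with limma, a linear model fitted over all tested genes. Of 10547 tested genes, 43.9% passed a Benjamini-Hochberg adjusted p of 0.05, 24.8% as higher in the light zone and 19.1% as higher in the dark zone. A share of a gene list near these values is ordinary for this contrast.

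Of 23 further clade B genes, 13 had a probe set of their own and 12 of these were below the filter level. The exception, Serpinb6e, had intensities of 159.1, 165.1, 159.7 and 164.3 in the light zone and 133.6, 147.8, 156.8 and 155.9 in the dark zone. The arrays were barely apart and the difference did not pass (-0.13, SE 0.07, limma adjusted p = 0.13). Some of its probes may be shared with paralogues, whose signal cannot be told apart from its own. Serpinb1b, a close paralogue of Serpinb1a, was the other gene with all light zone arrays higher. It had intensities of 28.01, 32.13, 32.81 and 25.65 in the light zone and 12.66, 14.37, 15.34 and 14.24 in the dark zone. It was below the filter. With no filter, where 25.7% of 18193 genes passed, its difference of -1.06 (SE 0.09) passed (limma adjusted p = 6.2e-07) and none of the other 12 did. With a pseudocount of 16 the difference of Serpinb1b was -0.60. How far Serpinb1a transcripts bind the Serpinb1b probes cannot be told from these files. With these 2 genes, 2 of 13 had every light zone array above every dark zone array, near the 14.6% of all named genes. Serpinb9c was the 1 gene with all dark zone arrays higher, by 0.11 and near the floor.

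The genes higher in the light zone lay together on the chromosome. In the reference gene order, chromosome 13 carries 16 clade B genes, of which 11 have a probe set here. Serpinb1a is the first, Serpinb6b the third, Serpinb9 the fourth and Serpinb1b the sixth. Serpinb1c, the second, has no probe set of its own name, and Serpinb9b, the fifth, was level and dim (0.00, with 22.7 to 30.45 in the light zone and 22.02 to 34.06 in the dark zone). From the seventh gene to the last, Serpinb6a, differences of the brightest probe sets ran from -0.13 to 0.11. Of these genes only Serpinb6e and Serpinb6a were above the filter level. The rest were below it or had no probe set of their own name, so a difference there could go unseen. Serpinb8 is the last of 12 clade B genes on chromosome 1. The 7 with a probe set were below the filter level, with differences from -0.14 to 0.08. The contrast within the chromosome 13 group was noticed in these values and was not tested.

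**Figure D3:**
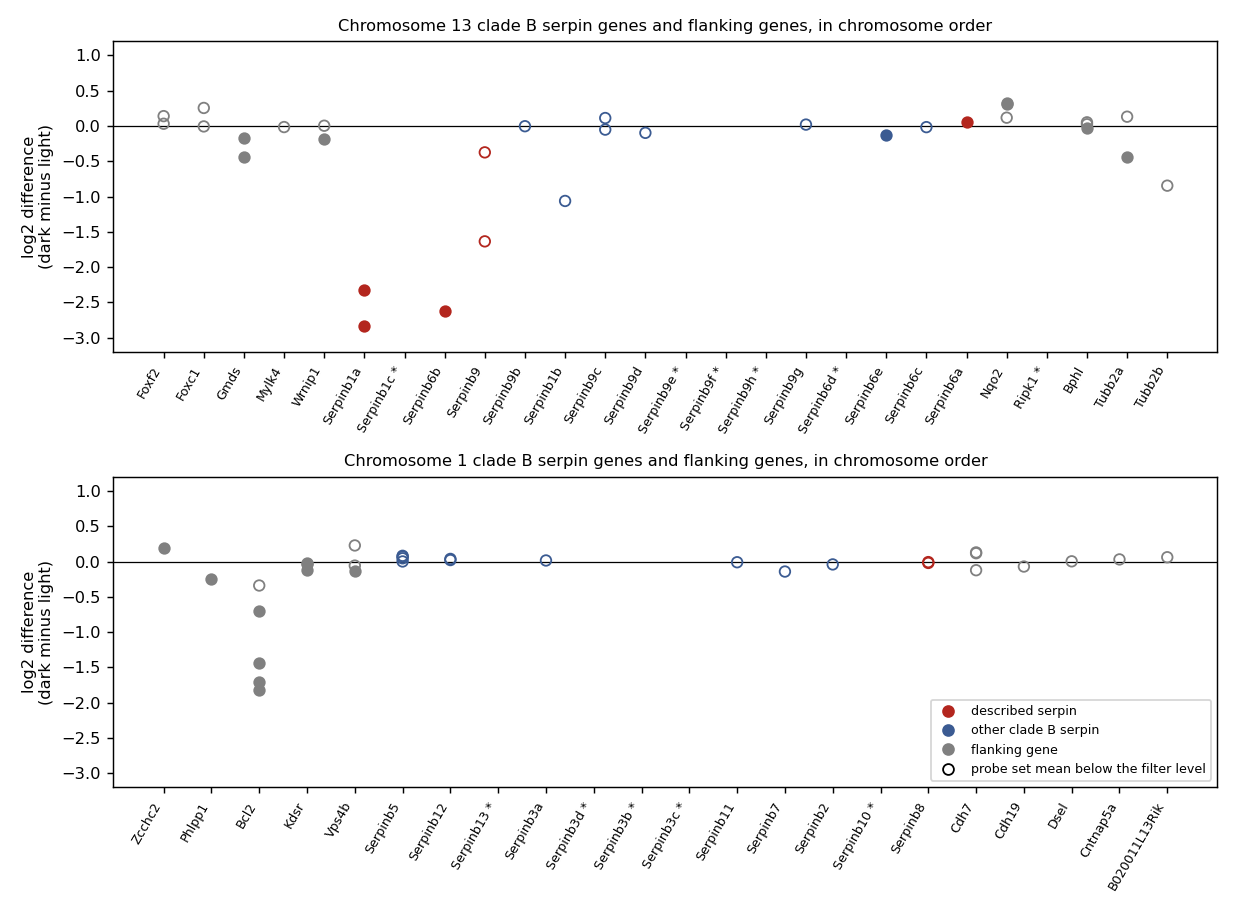
Log2 difference (dark minus light) of every single-symbol probe set of the clade B serpin genes and 5 flanking genes on each side, in chromosome order (evenly spaced, not to scale), for chromosomes 13 and 1. Open circles are probe sets below the filter level, and a star marks genes with no probe set of their own name. On chromosome 13 the negative values of clade B genes gather at the end that holds Serpinb1a (-2.83) and Serpinb6b (-2.62).

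The tested genes flanking the serpins on chromosome 13 had smaller differences. The largest was that of the tubulin gene Tubb2a (-0.43, SE 0.18), which did not pass (limma adjusted p = 0.068). Its neighbour Tubb2b, below the filter, was at -0.85. Of 20 neighbours, 10 were tested, 4 passed as higher in light zone cells and 1 as higher in dark zone cells, with a median of -0.16 against -0.01 over all tested genes. Before Serpinb1a, the DNA repair factor gene Wrnip1 was at -0.19 (SE 0.06, limma adjusted p = 0.023) and Gmds, an enzyme of GDP-fucose synthesis, at -0.17 (SE 0.065, limma adjusted p = 0.047). Beyond Serpinb6a, the quinone reductase gene Nqo2 was at 0.32 (SE 0.10, limma adjusted p = 0.022). On chromosome 1, Bcl2, the survival factor, had intensities of 129.5 ± 24.3 (SD, n = 4) in the light zone and 47.5 ± 6.26 (SD, n = 4) in the dark zone. Its difference was -1.44 (SE 0.12, limma adjusted p = 2.1e-06), with -0.34 to -1.82 over its 5 probe sets. Phlpp1, a phosphatase of AKT signalling, was at -0.24 (SE 0.09, limma adjusted p = 0.039). Gmds and Wrnip1 were chosen after their values were seen, and second probe sets gave -0.44 for Gmds and 0.00 for Wrnip1, the latter near the floor. The call of Gmds was lost when any array but dark zone replicate 3 was left out. Leaving out replicate 1 or 4 of the light zone, or replicate 2, 3 or 4 of the dark zone, ended the call of Phlpp1. Nqo2 lost its call when replicate 1 of the light zone, or replicate 1 or 4 of the dark zone, was left out. For Wrnip1 the same held for replicates 1 and 4 of the light zone and replicate 3 of the dark zone.

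Serpins outside clade B gave no common direction. Of 22 such genes with a probe set, 19 did not reach the filter level, 1 was higher in dark zone cells, 1 was higher in light zone cells and 1, Serpinf2 (-0.01, SE 0.08, limma adjusted p = 0.91), did not pass. Serpinf1, which encodes the secreted factor PEDF that does not inhibit proteases, had 78.8 ± 5.61 (SD, n = 4) in the light zone and 152.2 ± 5.71 (SD, n = 4) in the dark zone. Serpinf1 was higher in the dark zone by 0.95 (SE 0.07, limma adjusted p = 3.4e-07), and a dimmer probe set gave 0.25. The direction is opposite to that of Serpinb1a. Serpini1, neuroserpin, an inhibitor of tissue plasminogen activator, was at -0.58 (SE 0.11, limma adjusted p = 0.0012), and its 2 dimmer probe sets gave -0.54 and -0.14.

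Granule and secreted serine proteases, a list that holds granzymes, neutrophil and mast cell proteases and plasminogen activators, were mostly below the filter. Of 22 granule and secreted serine protease genes with a probe set, 20 were below the filter. They included Gzma (14.4 ± 1.56, SD, n = 4, in the light zone and 14.9 ± 0.980, SD, n = 4, in the dark zone) and Gzmb (16.1 ± 0.936 and 16.3 ± 1.62, SD, n = 4 each). Elane and Ctsg, neutrophil elastase and cathepsin G, were also below it, with differences of 0.07 and 0.08. The proteinase 3 gene Prtn3 did not pass (0.12, SE 0.07, limma adjusted p = 0.14). Gzmm, a granzyme of natural killer cells, was at 29.6 ± 2.53 (SD, n = 4) in the light zone and 34.2 ± 1.40 (SD, n = 4) in the dark zone, a difference of 0.21 (SE 0.07, limma adjusted p = 0.030). Leaving out replicate 1 or 2 of the light zone, or replicate 1, 2 or 4 of the dark zone, ended that call (limma adjusted p = 0.052 to 0.082), and the level is close to the filter.

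Lysosomal proteases covered a wide range of levels. Of 14 cathepsin and legumain genes, Ctsf and Ctsk were below the filter, and Ctsl (38.5 and 37.0 in the light and dark zone) and Ctsw (49.6 and 45.3) were not far above it. Of 12 tested cathepsin and legumain genes, 7 passed as higher in light zone cells and 1, legumain (Lgmn, 0.32, SE 0.08, limma adjusted p = 0.0056), as higher in dark zone cells, with a median of -0.23. The serine carboxypeptidase Ctsa had 794.5 ± 28.5 (SD, n = 4) in the light zone and 398.1 ± 7.50 (SD, n = 4) in the dark zone, a difference of -0.996 (SE 0.06, limma adjusted p = 5.5e-08). Another Ctsa probe set, at lower signal, gave 0.12. Ctse did not pass at its brightest probe set (-0.14, SE 0.15, limma adjusted p = 0.47). Its other probe set, well above the filter level, gave 0.88, higher in the dark zone, and was not tested. Ctsc, the peptidase that activates granule serine proteases, was at -0.54 (SE 0.07, limma adjusted p = 5.0e-05). Ctss, which trims the invariant chain of MHC class II, was at -0.47 (SE 0.09, limma adjusted p = 0.0018), and Ctsh, an aminopeptidase, at -0.45 (SE 0.05, limma adjusted p = 3.8e-05).

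Genes listed as other endogenous inhibitors of proteases, a list that also holds inhibitor of apoptosis proteins, went both ways. Of 13 tested, 5 passed as higher in light zone cells, 2 as higher in dark zone cells and 6 did not pass, with a median of 0.03. Slpi, a secreted inhibitor of elastase and cathepsin G, had 4207 ± 448 (SD, n = 4) in the light zone and 1617 ± 321 (SD, n = 4) in the dark zone, a difference of -1.39 (SE 0.12, limma adjusted p = 2.4e-06). Birc3, an inhibitor of apoptosis protein, was at -1.05 (SE 0.07, limma adjusted p = 3.4e-07), and Spint2, a Kunitz-type inhibitor, at -0.45 (SE 0.09, limma adjusted p = 0.0013; -0.20 at a dimmer probe set). Birc5, survivin, which also serves in mitosis, rose in the dark zone by 0.79 (SE 0.07, limma adjusted p = 2.5e-06). The differences of Slpi, Birc3 and Spint2 were each smaller in size than those of Serpinb1a and Serpinb6b, without a test of that contrast.

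**Figure D4:**
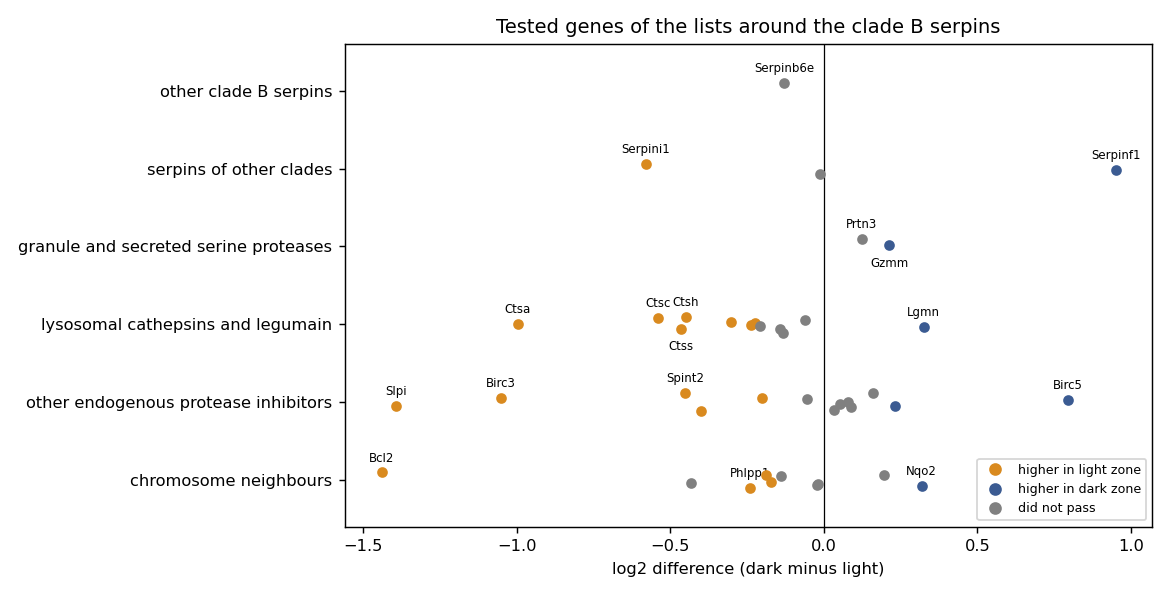
Log2 difference (dark minus light) of the tested genes of each list, 1 point per gene at its brightest probe set, coloured by the limma call (vertical scatter has no meaning). Cathepsins that were tested lie mostly left of 0, other inhibitors lie on both sides, and Slpi (-1.39), Bcl2 (-1.44) and Serpinf1 (0.95) are the widest of their lists.

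Genes with profiles most like each member were taken from the 10544 tested genes that are not members, by the root mean square distance of log2 values over 8 arrays after each profile was centred on its own mean. This uses the zone difference itself and is a description. For Serpinb1a the nearest were Snn (distance 0.13, difference -2.64), Plscr1 (0.23, -2.57) and Hivep3 (0.27, -2.55). For Serpinb6b they were Hivep3 (0.15), Plscr1 (0.18) and Egr2 (0.23, difference -2.67). Serpinb9 was nearest to the nuclear receptor gene Nr4a1 (0.23, difference -1.51), Ankrd33b (0.24, -1.67) and the NF-kB subunit gene Relb (0.26, -1.81). Serpinb6a was nearest to Tab3 (0.03), Trim34a (0.05) and Lppos (0.05), and Serpinb8 to Fndc10 (0.02), Styx (0.03) and Map3k10 (0.04), all genes without a call. Among the members, Serpinb1a and Serpinb6b were 0.23 apart, Serpinb6b and Serpinb9 0.56, and Serpinb6a and Serpinb6b 1.36.

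Markers of the cell type were checked against the labels. The B cell genes Ms4a1, Cd79a, Cd79b, Pax5 and Cd22, and 6 germinal centre genes including Bcl6, were above the filter in these arrays. The 6 germinal centre genes summed to 11920 to 12520 in the light zone arrays and 14520 to 15250 in those of the dark zone. Gcsam (1.48), Mybl1 (0.76) and S1pr2 (0.26) passed as higher in the dark zone. Fas (-0.23) and Rgs13 (-0.21) passed as higher in the light zone, and Bcl6 (0.14) did not pass. The 5 B cell genes summed to 23220 to 24210 in the light zone arrays and 20220 to 20840 in those of the dark zone. Of these only Cd22 (-0.66) passed, as higher in the light zone. Ms4a1 (-0.05), Cd79a (-0.06), Cd79b (-0.01) and Pax5 (0.22) did not. Marker signal of other cell types differed from type to type. In neutrophils 1 of 8 measured markers was above the filter and none passed, with summed intensities of 141.3 to 163.6 in the light zone and 154.9 to 168.6 in the dark zone. Among cytotoxic lymphocyte markers 1 of 7 was above the filter and none passed, with sums of 109.6 to 124.8 and 114.2 to 118.8. For T cells the counts were 2 of 8 and none, with sums of 190.7 to 203.7 and 183.5 to 193.9. In dendritic cells 3 of 5 were above the filter and none passed, with sums of 660.8 to 768 and 630.4 to 852.8, most of it from Flt3 (mean log2 levels of 9.20 in light zone arrays and 9.30 in dark zone arrays). Macrophage and monocyte markers had 4 of 10 above the filter and summed to 269.3 to 323.2 in the light zone and 362 to 1099 in the dark zone, and their calls went both ways. Much of the dark zone sum came from Lyz2, with 128.2 in dark zone replicate 1 and 461.4 to 824.2 in the others. The light zone arrays had 37.69 to 89.09 for Lyz2. Lyz2 (2.98) and Csf1r (0.40) were higher in the dark zone, and Cd68 (-0.40) was higher in the light zone, as were the 3 serpins. The Csf1r call was lost when replicate 1 or 2 of the light zone was left out (limma adjusted p = 0.051 and 0.066). Markers of follicular dendritic and stromal cells had 3 of 7 above the filter and summed to 2055 to 2321 in the light zone and 1054 to 1351 in the dark zone, of which Cr2 (-0.98), also a B cell gene, was the only call. Plasma cell markers had 5 of 6 above the filter, with sums of 10770 to 12080 in the light zone and 11730 to 12280 in the dark zone. Among them Irf4 (-2.03) and Prdm1 (-1.37) passed in the direction of Serpinb1a, Serpinb6b and Serpinb9, and Jchain (0.15) passed in the other. Sdc1 (-0.14) and Xbp1 (-0.15) did not pass. The Jchain call was lost when any array was left out (limma adjusted p = 0.053 to 0.13). Mast cell and basophil markers had 1 of 6 above it (152.1 to 168.9 and 160.9 to 188.5), and red cell and platelet markers 0 of 4 (51.02 to 53.35 and 53.92 to 58.9). The part of these cells in the serpin differences was not tested.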

How the data were processed

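Per the submitters' processing notes, the authors processed the arrays with RMA, a method that corrects background, equalises distributions between arrays and summarises each probe set. The sources used here give no version of it. The deposited table holds intensity values on a linear scale for 45037 probe sets in 8 arrays, with a median of 27.3 to 28.1 per array, and no arrays were identical. Their log2 was taken with no pseudocount. Probe sets with 1 symbol in the platform annotation (34945) were used, and 932 with several symbols and 9160 unnamed here were not. Gene identifiers matched a RefSeq table of assembly GRCm38.p6 for 34741 of them.

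Zones were compared by lmFit and eBayes of limma 3.58.1, run under R 4.3.3 (two-sided, Benjamini-Hochberg over 10547 genes, adjusted p under 0.05), on the brightest probe set of each gene and above the 50th percentile of probe set means. Differences are dark zone minus light zone. The standard error of a member comes from its own arrays, and that of any other gene from the limma fit. The model was tested on simulated data. Members and lists were chosen with earlier results of these data known. Named genes are the members, tested clade B genes, up to 4 called genes with the largest differences in each list (3 for the neighbours, the 5 nearest genes on each side that are not serpins), and the 3 nearest profiles of each member. Serpinb1b, Serpinb9b and Serpinb9c, below the filter, and the dim proteases were named after their values were seen. So were Ctse, Lgmn, Prtn3, Serpinf2, Tubb2a, Tubb2b, other marker and dim cathepsin genes, Gmds and Wrnip1. Alternatives covered the filter, probe set choice, scaling, pseudocount, variance model, replicate block and each array left out. Plots used Python 3.11.15 and matplotlib 3.10.9.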

Additional observations from a re-analysis of the deposited data

Results flagged for a closer look

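Among 128 groups of 4 arrays behind the named genes, 9 had 1 array far from the other 3, where chance alone gives about 1 group in 20. None of the 9 was a clade B serpin. Slpi had 2095 in dark zone replicate 2 against 1426 to 1515 in the others, still below every light zone array. Birc5 had 3436 in dark zone replicate 3 against 2912 to 2951. Bcl2 had 165.6 in light zone replicate 1 against 114.2 to 121.4. Plscr1, one of the genes nearest to Serpinb1a, had 18.25 in dark zone replicate 4 against 21.24 to 21.86. Serpinf2 had 40.78 in dark zone replicate 3 against 50.86 to 52.58, and without that array its difference was 0.07 and still did not pass (limma adjusted p = 0.36). Lyz2, a macrophage marker, had 89.09 in light zone replicate 4 against 37.69 to 43. Csf1r, another macrophage marker, had 68.67 in dark zone replicate 4 against 45.13 to 47.95. Of the dim cathepsins, Ctsf had 20.9 in dark zone replicate 2 against 16.72 to 17.32, and Ctsk had 18.35 in dark zone replicate 3 against 19.56 to 19.64.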

How the results depend on the processing

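The differences of Serpinb6a, Serpinb6b and Serpinb8 moved by less than the spread between arrays under all 9 alternatives and when any 1 array was left out. Serpinb1a moved to -2.58 and Serpinb9 to -1.005 when the probe sets of a gene were averaged, and to -2.62 and -1.002 with a pseudocount of 16. Leaving out 1 array gave -2.89 to -2.74 for Serpinb1a, -2.72 to -2.54 for Serpinb6b and -1.79 to -1.41 for Serpinb9. The number of genes called was 4509 to 4787 under the alternatives (4787 with the replicate number as a block) and 4083 to 4347 without 1 array, against 4629. Deviations of same-numbered arrays correlated at 0.06 to 0.24, and those of differently numbered arrays at -0.15 to 0.09. The sample titles do not say whether same-numbered arrays were paired. The main fit treated the arrays as unpaired, which does not show that they were, and the replicate block was an alternative. With the replicate block no count of a list moved by over 1.5 times, and 7 of 8 arrays correlated best with the array of their own number. With no filter, or a filter at the 25th percentile, 1 further clade B gene (Serpinb1b) was called higher in the light zone and 2 lysosomal genes higher in the dark zone, since more genes were tested. Averaging also gave 2 lysosomal genes. Quantile normalization left 2 neighbours higher in the light zone, and a pseudocount of 16 left 0 serine proteases called. Without 1 array, serine proteases called higher in the dark zone numbered 0 to 2, and neighbours 1 to 4 higher in the light zone and 0 to 1 in the dark zone. The cause was not tested for these. Below the filter, at an intensity of 27.8, signal over background limits what can be seen.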
